A study of Drosophila melanogaster with 12 samples.

Results

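The 10 genes Snap25, Syx1A, nSyb, Syt1, cpx, unc-13, Rim, brp, Syn and Nrx-1 encode proteins of the presynaptic terminal that hold, prime and fuse synaptic vesicles at the active zone. They were taken by FlyBase symbol from a table of 13777 genes, and each of the 10 matched 1 row.

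In a nerve terminal the vesicle protein neuronal Synaptobrevin (nSyb) winds together with Syntaxin 1A (Syx1A) and Snap25 of the plasma membrane, and this SNARE complex draws vesicle and membrane together. Synaptotagmin 1 (Syt1) senses the calcium that triggers fusion, Complexin (cpx) clamps and assists the assembled SNAREs, and Unc-13 opens Syntaxin and primes vesicles. Rim and Bruchpilot (brp) are scaffolds of the active zone, the membrane patch where vesicles fuse beside calcium channels. Synapsin (Syn) tethers vesicles in the reserve pool, and Neurexin 1 (Nrx-1) is a presynaptic adhesion protein that binds neuroligins across the cleft. In the fly these genes are known chiefly for their work in neurons.

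The libraries hold reads from transcript 3' ends of S2R+ cells, a Drosophila melanogaster culture line that shows properties of hemocytes (insect blood cells) and forms no synapses. All groups were the same line: untreated cells, for which the labels give no treatment and no mock transfection, and cells transfected with wild-type Elav (ElavWT), wild-type Fne (FneWT) or wild-type Rbp9 (Rbp9WT), with 2 libraries per group. Elav, Fne and Rbp9 are RNA-binding proteins of the ELAV/Hu family, found mainly in neurons, and the design asks how overexpression of each changes transcripts and their 3' ends. The labels name no promoter for the constructs, and the 4 libraries of proteins with mutant RNA recognition motifs (RRM) are not analysed here. Without a mock group, an effect of transfection itself and one of the protein cannot be told apart in any contrast with untreated cells. Phrases such as "with each protein" below name the transfected groups only.

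Levels are the authors' CPM, the reads of a gene scaled to a common library total, so all 3' ends of a gene are added together. Each transcript gives reads from its end only, so levels of different genes can be set side by side without a length correction. The 8 libraries held 4694825 to 14391952 reads, and 1 read was worth 0.0695 to 0.213 CPM. The labels do not say whether libraries of a group are separate cultures, so p-values cover only the spread between these libraries, part or all of which may be technical. These are bulk samples, in which fewer cells with a transcript and less of it per cell cannot be told apart.

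Libraries differed by replicate number before any group was compared. rRNA-named genes held 2.91% to 5.91% of reads in replicate 1 libraries and 15.4% to 24.8% in replicate 2. On the first principal component (66.5% of the variance) the transfected replicate 1 libraries lay at -82.5 to -62.3 and the transfected replicate 2 libraries at 28.8 to 51.7. Untreated replicates 1 and 2 lay at 11.9 and 77.8 there. Untreated replicate 1 was thus nearer to the transfected replicate 2 libraries than to those of its own number. Untreated replicate 1 stood alone on the second component (17.2%), at 71.9 against 11.1 or less elsewhere, and every contrast with untreated cells rests on that library and untreated replicate 2. Of the construct genes, Rbp9 measured 713 and 58.8 CPM in Rbp9WT and 7.46 CPM or less elsewhere. fne reached 97.4 and 48.0 CPM in FneWT, with 49.8 CPM in replicate 1 of ElavWT and 114.8 CPM in that of Rbp9WT. The libraries labelled ElavWT held 29.2 and 26.6 CPM of elav, within the range of the untreated 24.9 and 37.3 CPM.

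Every member was detected in every library, and all 10 would pass the filter of a mean of 1 CPM on the untreated libraries alone, where their means ran from 1.89 CPM for Syn to 401 CPM for Syx1A. In untreated cells Syx1A, at 196 and 606 CPM, lay above unc-13, at 66.8 and 137 CPM, and unc-13 lay above Snap25, at 32.7 and 17.6 CPM, with no overlap between neighbours in that order. nSyb and cpx came next by mean and their ranges overlapped that of Snap25 or each other. Rim, Syt1, Nrx-1, brp and Syn followed, with untreated means of 5.39, 4.18, 3.97, 2.36 and 1.89 CPM, and each of these overlapped the range of the gene above it except Rim, which lay below cpx. After transfection the order at the top stayed Syx1A, unc-13, Snap25 by mean in all 3 groups, although Snap25 overlapped unc-13 in ElavWT and Rbp9WT. Nrx-1 came next by mean in each, with a range that overlapped that of Snap25.

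**Figure D1:**
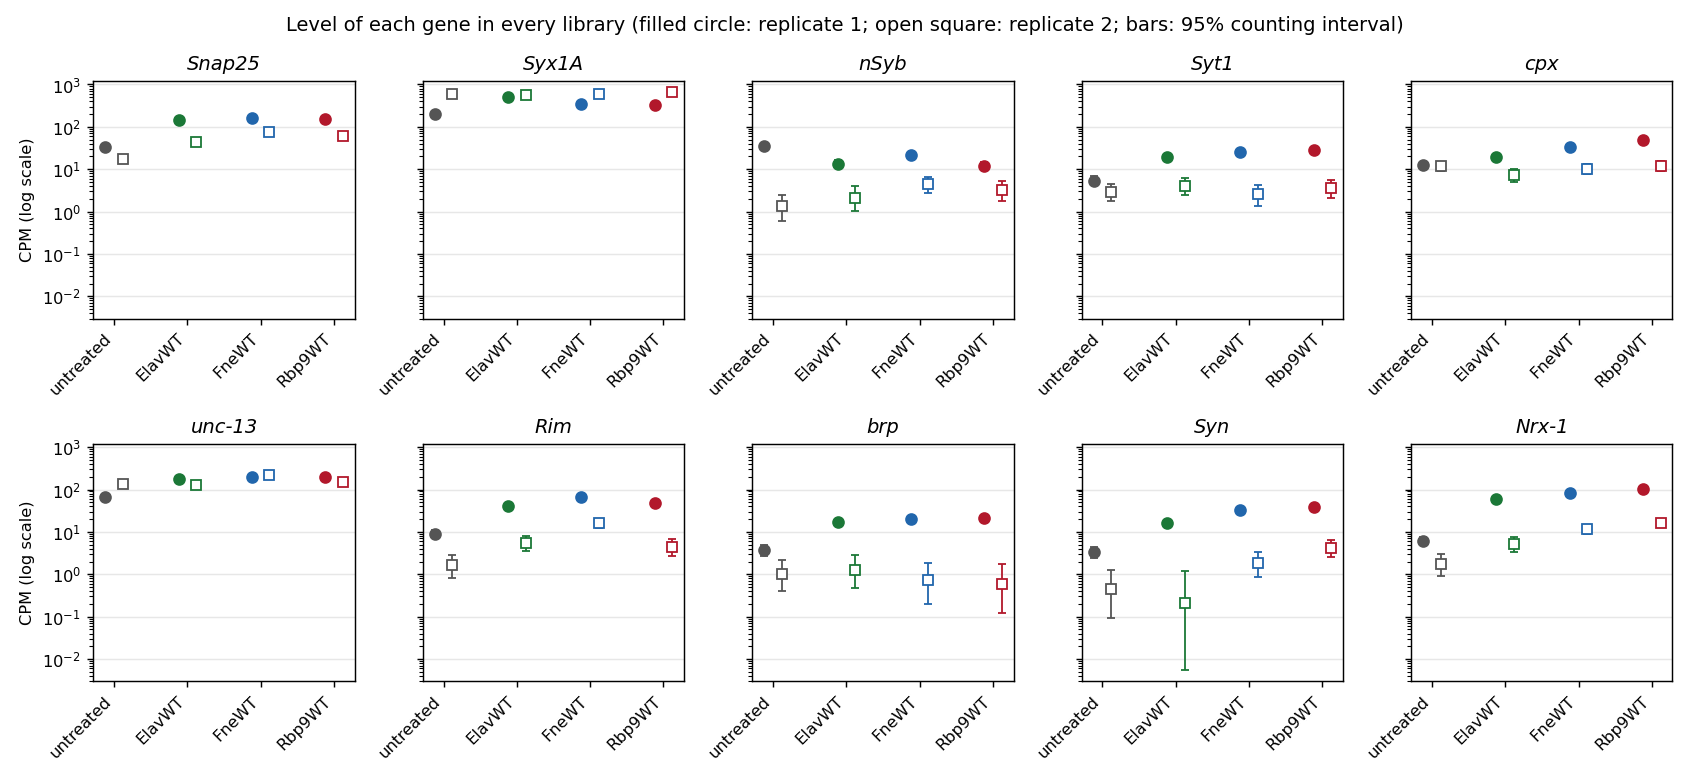
CPM of each of the 10 genes in the 8 libraries on a log scale; filled circles are replicate 1, open squares replicate 2, and bars are exact 95% Poisson intervals, which cover counting error only. Snap25, Nrx-1 and Rim sat higher in each transfected library than in the untreated library of the same number. Syx1A ran from 196 to 648 CPM, with its untreated libraries at 196 and 606 CPM.

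Set against the untreated library of the same replicate number, Snap25, Nrx-1 and Rim were higher in all 6 transfected libraries, and the 95% counting interval of every such ratio lay above 1. Syn was higher in all libraries except ElavWT replicate 2. Syt1, brp, cpx, Syx1A and unc-13 were higher in the 3 transfected replicate 1 libraries, but in replicate 2 their ratios lay on both sides of 1. nSyb was lower in the 3 transfected replicate 1 libraries and higher in the 3 of replicate 2.

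These differences were read over the 9114 genes whose mean reached 1 CPM, in 2 fits of limma on log2(CPM + 1) with Benjamini-Hochberg adjustment. With group as the only term, 0 of 10 members and 0 of 9114 genes (0%) passed an adjusted p of 0.05 in any contrast with untreated cells. At an unadjusted p under 0.05 this fit held 444, 677 and 666 genes for ElavWT, FneWT and Rbp9WT, among them 0, 2 and 1 members. DESeq2 on the recovered reads called 2.89%, 4.78% and 2.92% of genes and, of the members, only Snap25 in FneWT (adjusted p = 0.0279). Adding the replicate number as a term, here called the paired fit, raised 3 members in ElavWT against 9.02% of all tested genes, 5 in FneWT against 15.1% and 4 in Rbp9WT against 17.7%. It lowered 0 members in each contrast, against 1.09%, 1.94% and 0.735% of all genes. With median-ratio scaling of the libraries in that fit, 3, 4 and 4 members rose against 7.68%, 12.2% and 10.3% of genes. The scaled fit lowered 0 members in each contrast, beside 261, 598 and 445 of the 9114 genes. The pairing rests on the data, since same-numbered libraries deviated together, and in what follows "rose" means a pass in the paired fit. Log2 changes are differences of log2(CPM + 1), which understates the change of low genes, and they are given relative to the median tested gene, which was itself 0.25, 0.28 and 0.42 higher than in untreated cells in ElavWT, FneWT and Rbp9WT. Each adjusted p tests the change before that shift was taken off.

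Snap25, the plasma-membrane SNARE that contributes a pair of helices to the complex, measured 32.7 and 17.6 CPM in untreated replicates 1 and 2. It measured 144 and 44.3 CPM in ElavWT, 162 and 74.9 CPM in FneWT, and 149.9 and 59.8 CPM in Rbp9WT. Every transfected library was above both untreated libraries. Snap25 was thus the one member without overlap in all 3 contrasts. The replicate 1 ratios were 4.40, 4.95 and 4.59, and those of replicate 2 were 2.51, 4.25 and 3.39, in the order ElavWT, FneWT, Rbp9WT. Snap25 rose by 1.45 ± 0.29 (SE) in ElavWT, 1.87 ± 0.29 in FneWT and 1.52 ± 0.29 in Rbp9WT on the relative log2 scale (limma paired fit, adjusted p = 3.61e-04, 1.39e-05 and 5.56e-05).

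Syx1A, the plasma-membrane syntaxin, was the most abundant member in every library, though its reads could in part belong to eIF4EHP, as told below. It measured 196 and 606 CPM in untreated cells, 513 and 559 CPM in ElavWT, 339 and 592 CPM in FneWT, and 334 and 648 CPM in Rbp9WT. The untreated libraries spanned nearly the whole range, so the groups overlapped. In replicate 1 it was 2.62, 1.73 and 1.70 times the untreated level, and in replicate 2 the ratios were 0.923, 0.978 and 1.07. Its paired changes of 0.39, 0.097 and 0.016 did not pass in limma (adjusted p = 0.256, 0.463 and 0.397).

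nSyb, the vesicle SNARE, had its highest value in an untreated library. It measured 34.7 and 1.32 CPM there, 13.4 and 2.13 CPM in ElavWT, 21.2 and 4.37 CPM in FneWT, and 12.2 and 3.19 CPM in Rbp9WT. Both the highest and the lowest level were therefore untreated, and they differed 26.3-fold. Ratios to the untreated library of the same number were 0.385, 0.612 and 0.352 in replicate 1 and 1.61, 3.30 and 2.41 in replicate 2, where the untreated library held 9 reads. No paired change passed in limma, with -0.69 ± 0.47 in ElavWT, -0.018 in FneWT and -0.71 in Rbp9WT (adjusted p = 0.582, 0.730 and 0.699).

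Of the 3 SNAREs of 1 complex, Snap25 thus rose in each transfected group, while Syx1A and nSyb passed in none. Differences between these genes were not tested. Relative to the median tested gene, Syx1A was higher in replicate 1 (0.99, 0.27 and 0.25) and lower in replicate 2 (-0.20, -0.086 and -0.21). nSyb had the reverse signs. Snap25 and nSyb were also read against a widely used paralog. For Snap25 this was Snap24, a SNAP-25-type SNARE outside the synapse as well, and for nSyb it was Syb, the Synaptobrevin of general secretion. Snap24 measured 175 and 74.9 CPM in untreated cells and 103.9 to 297 CPM in the transfected libraries, and it rose in Rbp9WT (0.55 ± 0.29, limma adjusted p = 0.0212). It did not pass in ElavWT (0.184) or FneWT (0.265), and no difference between proteins passed (limma adjusted p = 0.787 for Rbp9WT against ElavWT and 0.951 against FneWT). The ratio of Snap25 to Snap24 was 0.211 ± 0.0347 (SD, n = 2) in untreated cells, 0.454 ± 0.0778 in ElavWT, 0.691 ± 0.0428 in FneWT and 0.428 ± 0.108 in Rbp9WT. All 6 transfected libraries, at 0.351 to 0.722, lay above the untreated 0.186 and 0.235, and both FneWT libraries lay above the other 4. The ratio is given as a description, and no test of it was run. nSyb over Syb was 0.274, 0.140, 0.455 and 0.248 in replicate 1 of untreated, ElavWT, FneWT and Rbp9WT, but only 0.00490, 0.0128, 0.0193 and 0.0163 in replicate 2. FneWT was highest in both numbers and was followed by Rbp9WT and ElavWT, while untreated cells came second in replicate 1 and last in replicate 2. Syb itself measured 127 and 270 CPM in untreated cells and 46.7 to 227 CPM after transfection, with no pass in the paired fit. With median-ratio scaling Syb fell in FneWT (-1.14 ± 0.35) and Rbp9WT (-1.37 ± 0.35; limma adjusted p = 0.0334 and 0.0182), and the Snap24 call in Rbp9WT was lost (0.191).

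**Figure D2:**
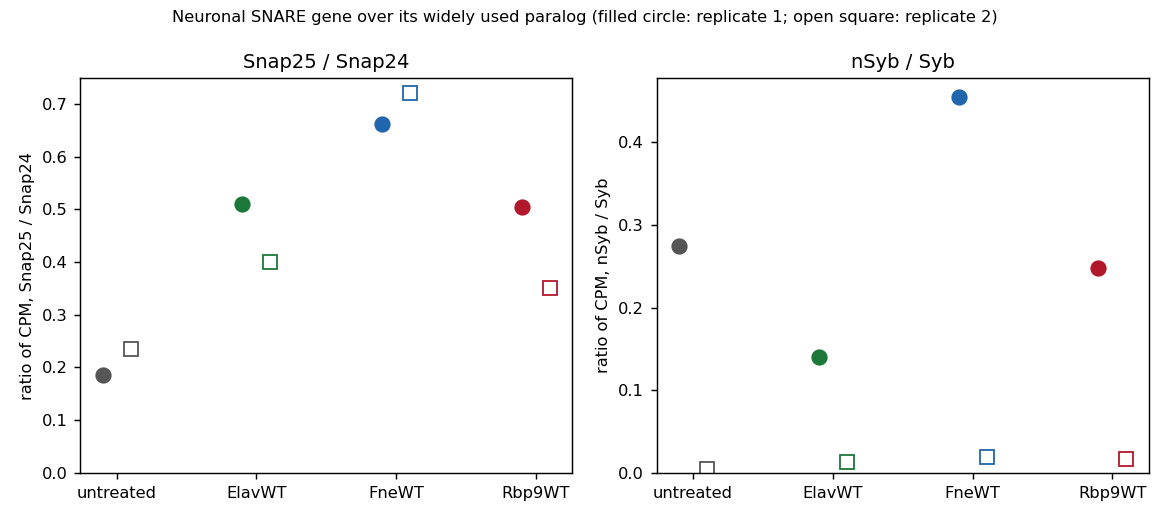
Ratio of CPM of each neuronal SNARE gene to its widely used paralog in the 8 libraries; filled circles are replicate 1 and open squares replicate 2. Snap25 over Snap24 was 0.186 and 0.235 in untreated cells and 0.351 or more in each transfected library, whereas nSyb over Syb was 0.140 or more in replicate 1 and 0.0193 or less in replicate 2.

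Syt1, the calcium sensor of fast release, measured 5.42 and 2.94 CPM in untreated cells. It measured 19.5 and 4.05 CPM in ElavWT, 25.0 and 2.55 CPM in FneWT, and 28.5 and 3.59 CPM in Rbp9WT. The replicate 1 libraries were the high ones and those of replicate 2 stayed within the counting interval of the untreated library, so the groups overlapped. Ratios in replicate 1 were 3.59, 4.61 and 5.26, and the replicate 2 ratio in ElavWT was 1.38 with a 95% interval of 0.696 to 2.72. The paired changes of 0.77 ± 0.46, 0.65 and 0.80 did not pass in limma (adjusted p = 0.169, 0.161 and 0.0672).

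cpx, the SNARE clamp, was the steadiest member in untreated cells, at 12.9 and 11.7 CPM. It measured 19.3 and 7.24 CPM in ElavWT, 32.8 and 10.2 CPM in FneWT, and 47.8 and 12.2 CPM in Rbp9WT. In replicate 1 each transfected library was above both untreated libraries, and in replicate 2 only Rbp9WT reached their range. The paired changes were -0.29, 0.27 and 0.52 ± 0.37, and none passed in limma (adjusted p = 0.960, 0.320 and 0.0843).

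Among the priming and active zone genes, Rim, the scaffold that links vesicles, Unc-13 and calcium channels, rose with each protein. It measured 9.17 and 1.62 CPM in untreated cells, 40.6 and 5.54 CPM in ElavWT, 67.2 and 15.8 CPM in FneWT, and 48.1 and 4.38 CPM in Rbp9WT. Replicate 2 of ElavWT and of Rbp9WT stayed below untreated replicate 1, and only FneWT lay wholly above the untreated pair. The ratios by number were 4.43, 7.33 and 5.24 in replicate 1 and 3.43, 9.80 and 2.71 in replicate 2. Rim rose by 1.43 ± 0.36 in ElavWT, 2.44 ± 0.36 in FneWT and 1.24 ± 0.36 in Rbp9WT (limma paired fit, adjusted p = 0.00343, 1.03e-05 and 0.00227).

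unc-13, the priming factor, was abundant before transfection, at 66.8 and 137 CPM. It measured 181 and 131 CPM in ElavWT, 201 and 226 CPM in FneWT, and 193 and 149 CPM in Rbp9WT. FneWT and Rbp9WT lay above both untreated libraries, and ElavWT replicate 2 fell between them. It rose in FneWT by 0.87 ± 0.33 (limma paired fit, adjusted p = 0.0174), and this call was lost with median-ratio scaling of the libraries (adjusted p = 0.0708). The changes of 0.43 in ElavWT and 0.40 in Rbp9WT did not pass (limma, adjusted p = 0.205 and 0.0844).

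brp, the Bruchpilot scaffold of the active zone, was the least abundant member on average, with 53 and 7 reads in untreated cells. Its levels were 3.68 and 1.03 CPM in untreated cells, 17.3 and 1.28 CPM in ElavWT, 19.9 and 0.728 CPM in FneWT, and 21.7 and 0.598 CPM in Rbp9WT. The replicate 1 libraries stood 4.71, 5.40 and 5.89 times above their untreated library, and replicate 2 libraries held only 3 to 7 reads each. A difference in replicate 2 was not detectable at this depth, since the intervals of all 3 ratios spanned 1. The paired changes of 0.82 ± 0.54, 0.68 and 0.55 did not pass in limma (adjusted p = 0.230, 0.225 and 0.226).

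Syn, the vesicle tether, measured 3.34 and 0.441 CPM in untreated cells, the second value resting on 3 reads. It measured 15.9 and 0.213 CPM in ElavWT, 32.3 and 1.82 CPM in FneWT, and 39.0 and 4.18 CPM in Rbp9WT, from 113 and 1, 260 and 10, and 342 and 21 reads. Only Rbp9WT lay wholly above untreated cells, and ElavWT replicate 2 was the lowest library of all. The replicate 2 ratio was 0.483 in ElavWT (95% interval 0.00921 to 6.02), 4.13 in FneWT (1.06 to 23.3) and 9.49 in Rbp9WT (2.83 to 49.7). Syn rose in FneWT by 1.68 ± 0.49 and in Rbp9WT by 2.11 ± 0.49 (limma paired fit, adjusted p = 0.00726 and 8.11e-04), and its change of 0.61 in ElavWT did not pass (adjusted p = 0.284).

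Nrx-1, the presynaptic adhesion protein, had the largest change of the 10 in each contrast of the paired fit. Differences between genes were not tested. It measured 6.18 and 1.76 CPM in untreated cells, 58.5 and 5.11 CPM in ElavWT, 81.0 and 11.6 CPM in FneWT, and 104.2 and 16.5 CPM in Rbp9WT. FneWT and Rbp9WT lay above both untreated libraries, and ElavWT replicate 2 lay just below untreated replicate 1. The ratios were 9.46, 13.1 and 16.9 in replicate 1 and 2.90, 6.61 and 9.38 in replicate 2. In replicate 2 other members had higher ratios, namely Rim in ElavWT (3.43) and FneWT (9.80), and Syn in Rbp9WT (9.49, over 3 untreated reads). Nrx-1 rose by 1.85 ± 0.37 in ElavWT, 2.57 ± 0.37 in FneWT and 2.85 ± 0.37 in Rbp9WT (limma paired fit, adjusted p = 5.80e-04, 1.01e-05 and 1.68e-06).

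**Figure D3:**
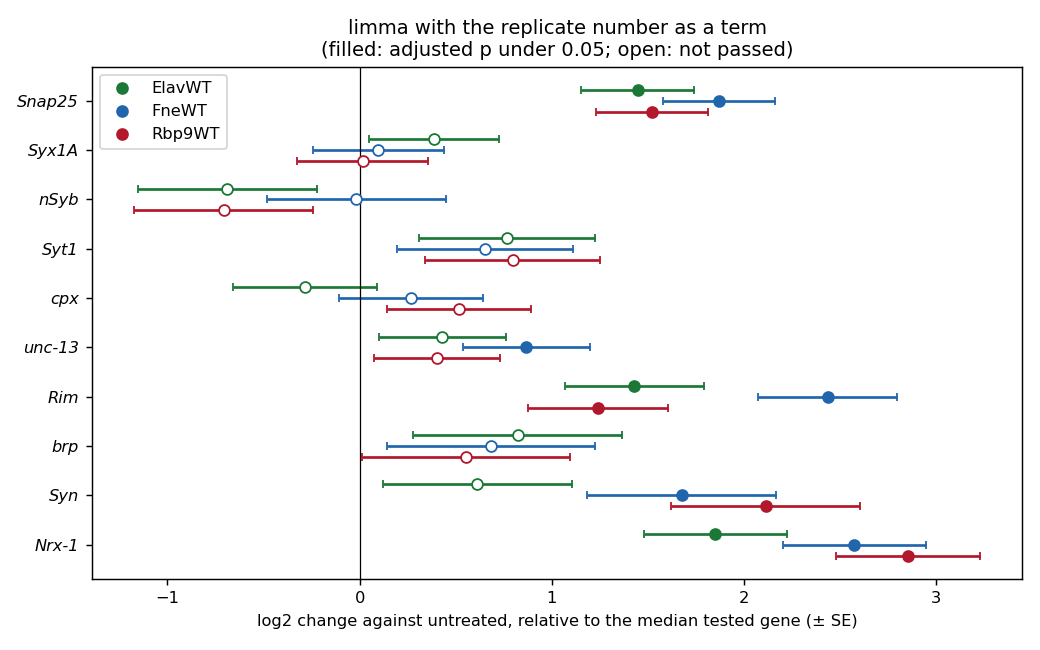
Relative log2 change ± SE of the 10 genes in each contrast with untreated cells, from the paired limma fit; filled points passed an adjusted p of 0.05. Snap25, Rim and Nrx-1 are filled for all 3 proteins, Syn for FneWT and Rbp9WT, and unc-13 for FneWT.

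The 2 replicate numbers did not weigh equally. In replicate 1, 7 of 10 members were over 1 on the relative log2 scale with each protein, beside 20%, 22.1% and 19.4% of all tested genes in ElavWT, FneWT and Rbp9WT. In replicate 2 the counts were 3, 4 and 3, beside 7%, 9.63% and 9.08%. The median member change was 1.43, 1.58 and 1.66 in replicate 1 and 0.18, 0.79 and 0.23 in replicate 2. nSyb was the 1 member under -1 in replicate 1, where 13.7%, 14.8% and 14.1% of all genes were, and no member was under -1 in replicate 2, where 2.93%, 2.66% and 2.13% of all genes were. For ElavWT, FneWT and Rbp9WT, 1, 4 and 4 of 10 members lay wholly above untreated cells, beside 23%, 25.3% and 33.5% of all genes. These counts are too small to set the members apart from all genes. No member lay wholly below untreated cells, where 7.33%, 8.06% and 5.98% of all genes did.

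**Figure D4:**
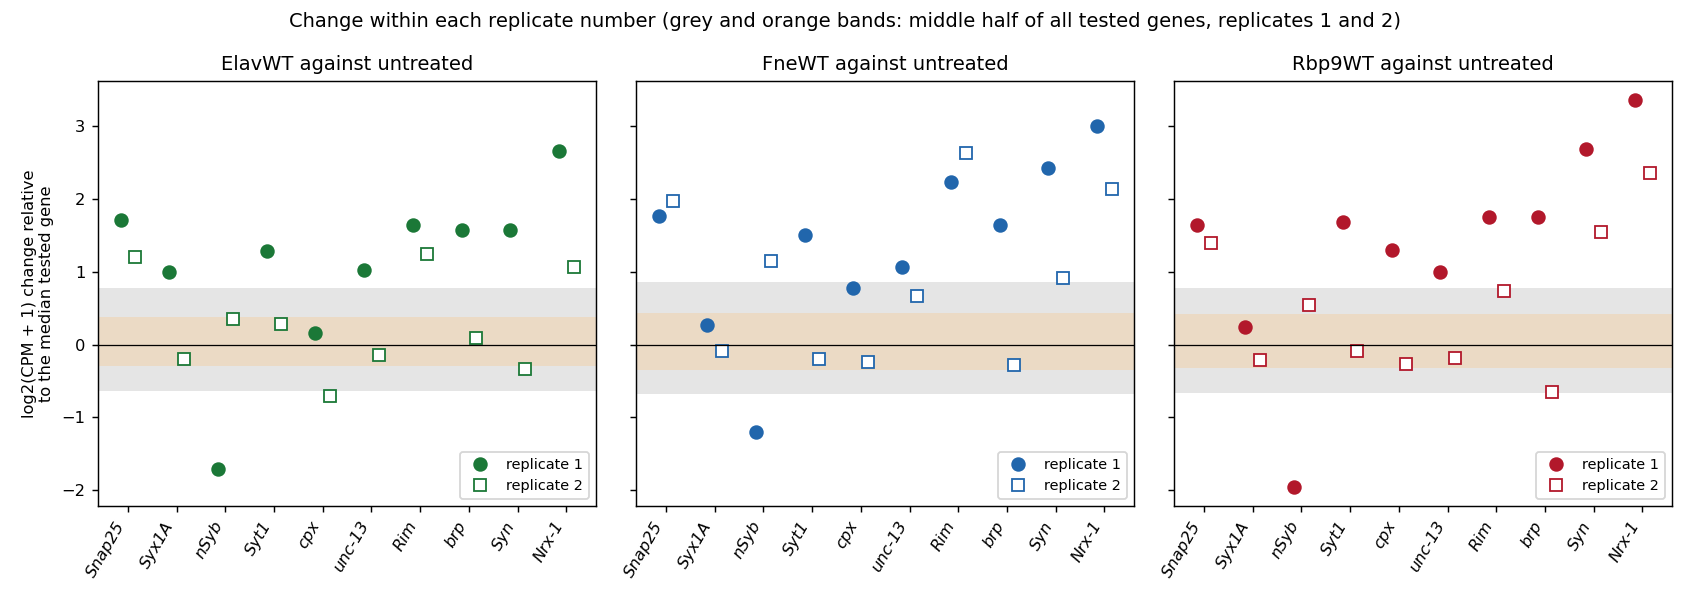
Relative log2(CPM + 1) change of each gene against the untreated library of the same replicate number, with the middle part of all tested genes (lower to upper quartile) as grey (replicate 1) and orange (replicate 2) bands. In each panel 7 of 10 filled circles exceed 1, and among the open squares Snap25 runs from 1.20 to 1.97, Nrx-1 from 1.06 to 2.36 and Rim from 0.74 in Rbp9WT to 2.63 in FneWT.

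Leaving out single libraries moved the paired calls and their sizes. Without untreated replicate 1, 1 member passed in ElavWT (Snap25), 3 in FneWT (Snap25, Nrx-1, Rim) and 3 in Rbp9WT (Syn, Snap25, Nrx-1), while 3.12%, 5.45% and 6.05% of all genes did. Without untreated replicate 2, 9, 9 and 10 members passed, with nSyb among those lower in ElavWT and Rbp9WT, and so did 30.6%, 38.2% and 37.7% of all genes. Without the replicate 1 library of the tested protein, 2, 3 and 3 members passed against 3.64%, 2.84% and 6.91% of all genes, and Rim in ElavWT (adjusted p = 0.0551), Rim in Rbp9WT (0.213), Syn in FneWT (0.235) and unc-13 in FneWT (0.184) were lost in limma. Snap25 passed in all 8 such fits with each protein, as did Nrx-1 and Rim in FneWT and Nrx-1 and Syn in Rbp9WT. Nrx-1 in ElavWT was lost only without untreated replicate 1 (1.29, limma adjusted p = 0.0506).

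Over the 8 fits that each lacked 1 library, the relative log2 change of Nrx-1 ran from 1.29 to 2.43 in ElavWT, 2.00 to 3.15 in FneWT and 2.30 to 3.41 in Rbp9WT. That of Snap25 ran from 1.20 to 1.70, 1.63 to 2.09 and 1.44 to 1.61, and that of Rim from 1.27 to 1.61, 1.99 to 2.86 and 0.73 to 1.76, the lowest without Rbp9WT replicate 1. Syn ran from 0.91 to 2.44 in FneWT and from 1.37 to 2.86 in Rbp9WT, and unc-13 from 0.41 to 1.33 in FneWT. For both genes the lowest value came without untreated replicate 1 and the highest without untreated replicate 2. The unc-13 change in FneWT was 1.05 without FneWT replicate 1 and 0.66 without FneWT replicate 2, and its call was lost in both fits. In the group-only fit, where none of these passed, the corresponding ranges were wider, with 0.51 to 3.22 for Nrx-1 in ElavWT, 0.39 to 2.49 for Rim in ElavWT and 0.24 to 3.08 for Syn in FneWT.

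No member passed between 2 transfected groups with all 8 libraries. In the paired fit 16 genes (0.176%) passed for FneWT against ElavWT, 54 (0.592%) for Rbp9WT against ElavWT and 0 (0%) for Rbp9WT against FneWT. At an unadjusted p under 0.05 the same fit held 706, 1006 and 506 genes, among them 2, 3 and 1 members, and neither DESeq2 nor edgeR called a member here. The largest member difference was Syn, higher in Rbp9WT than in ElavWT by 1.52 with a 95% interval of 0.51 to 2.53 (limma adjusted p = 0.116). Rim was higher in FneWT than in ElavWT by 1.00 (0.25 to 1.75, limma adjusted p = 0.411), and lower in Rbp9WT than in FneWT, at -1.18 (-1.92 to -0.43, adjusted p = 0.724). Nrx-1 was higher in Rbp9WT than in ElavWT by 1.03 (0.25 to 1.80, limma adjusted p = 0.160). Only unc-13 had groups without overlap here, with FneWT above ElavWT (8.04% of all genes) and Rbp9WT below FneWT (4.6%). In the other 4 directions, with 0 members, all genes without overlap came to 6.53% for FneWT below ElavWT, 15.1% and 5.39% for Rbp9WT above and below ElavWT, and 10.7% for Rbp9WT above FneWT. So Syn passed with FneWT and Rbp9WT and not with ElavWT, but with all 8 libraries the difference between the proteins did not itself pass. Syn and Nrx-1 did pass for Rbp9WT against ElavWT when untreated replicate 1 or untreated replicate 2, neither of which is in that contrast, was left out of the paired fit, beside 3.24% and 3.28% of all genes.

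On BDGP6 coordinates of the Ensembl annotation the 10 genes shared long annotated 3' UTRs, which the choice of genes did not use. The longest 3' UTR ran from 1462 bases in Snap25 to 8785 in cpx. All 10 were above the upper quartile of 823 bases over the 8745 tested protein-coding genes with an annotated 3' UTR, whose median was 329. The trait was not particular to the 10, since all 11 neuron markers read below were above it too, from 2549 bases in onecut to 8761 in para. So was the active zone list read below except Exn (247), but of the SNAREs of general membrane traffic only Snap24 (906) was. More than 1 annotated 3' end was present in 9 of the 10, against a median of 1 and an upper quartile of 2 over 8770 tested protein-coding genes. Snap25 (FBgn0011288, chromosome 3L, 24074180 to 24299205, plus strand) was the exception, with 2 transcripts and 1 end. Nrx-1 (FBgn0038975, chromosome 3R, 22468512 to 22486969, plus strand) had 9 transcripts and 4 ends with 3' UTRs of 98 to 3113 bases. Rim (FBgn0053547, chromosome 3R, 17872748 to 17916578, minus strand) had 2 ends and 3' UTRs of 502 to 3458 bases, and Syn (FBgn0004575, chromosome 3R, 10190689 to 10222442, plus strand) had 2 ends and 2034 to 3631 bases. Members that did not rise had long 3' UTRs as well. brp (FBgn0259246, chromosome 2R, 9503765 to 9541565, plus strand) reached 4391 bases with 3 ends, and Syt1 (FBgn0004242, chromosome 2L, 2772327 to 2799979, minus strand) 4011 bases with 3. A link between 3' UTR length and change was not tested. Which end was used could not be read from 1 level per gene.

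Of the others, nSyb (FBgn0013342, chromosome 3L, 1630348 to 1637752, minus strand) had 3 ends and 3' UTRs of 74 to 2636 bases. cpx (FBgn0041605, chromosome 3R, 4280221 to 4304604, plus strand) had the most transcripts, 21. Syx1A (FBgn0013343, chromosome 3R, 24101600 to 24105763, minus strand) shares 3' UTR sequence with an exon of eIF4EHP on the same strand, so reads there could belong to either gene. unc-13 (FBgn0025726, chromosome 4, 867824 to 912331, minus strand) overlaps an exon of asRNA:CR43425 on the opposite strand in its 3' UTR. The labels and the table do not state whether counting used strand, so the unc-13 level may hold antisense reads. In all, 8 of 10 members overlap another annotated gene, against 52.2% of tested protein-coding genes.

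Other genes of the same machinery were read by list. Of 16 tested SNARE regulators and calcium sensors, 0 rose in ElavWT, 3 in FneWT and 2 in Rbp9WT, and 1 fell in FneWT. Over all tested genes 9.02%, 15.1% and 17.7% rose in these contrasts, so 3 and 2 of 16 lay near those shares. Their medians were 0.42, 0.36 and 0.37, beside 0 by construction for all tested genes. Syt7, a synaptotagmin, rose in FneWT (1.85 ± 0.47) and Rbp9WT (1.44 ± 0.47; limma adjusted p = 0.00268 and 0.00729), from 2.08 and 0.734 CPM in untreated cells to 21.1 and 3.64 CPM in FneWT. Frq1, a frequenin calcium sensor, rose in both groups as well (1.31 ± 0.48 and 1.15 ± 0.48), and Syt14 rose in FneWT (1.46 ± 0.52). Rop, the Sec1/Munc18 protein that binds Syntaxin, fell in FneWT by 1.48 ± 0.32 (limma adjusted p = 0.0114), from 220.2 and 86.4 CPM in untreated cells to 90.0 and 39.5 CPM. With median-ratio scaling Rop also fell in Rbp9WT, by 1.32 ± 0.32 (limma adjusted p = 0.0126), and the rises of this list were the same 3 and 2 genes.

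The 13 genes of the active zone scaffold, calcium channel and axonal transport held more calls. There 4 rose in ElavWT, 6 in FneWT and 6 in Rbp9WT (9.02%, 15.1% and 17.7% of all tested genes), and the medians were 0.80, 0.73 and 0.59. Srpk79D, a kinase that keeps Bruchpilot from clumping in axons, rose with each protein, by 2.69 ± 0.44, 2.83 ± 0.44 and 2.12 ± 0.44 (limma adjusted p = 6.47e-05, 2.13e-05 and 2.32e-04). It measured 1.04 and 0.734 CPM in untreated cells and 5.78 to 32.6 CPM in transfected libraries, with no overlap. Rbp, the Rim-binding protein of the active zone, rose by 1.61 ± 0.48, 2.21 ± 0.48 and 1.93 ± 0.48, with 0 reads in untreated replicate 2. Rab3-GEF, the exchange factor of the vesicle GTPase Rab3, rose with each protein too (1.09 ± 0.42, 1.62 ± 0.42 and 0.95 ± 0.42). unc-104, the kinesin of synaptic vesicle precursors, passed in ElavWT (1.17 ± 0.40, limma adjusted p = 0.0245), and no gene of this list passed between 2 proteins. With median-ratio scaling 3, 3 and 4 genes of the list rose, among them Srpk79D and Rbp with each protein, and unc-104 was lost (adjusted p = 0.0511). The calcium channel subunit cac and Liprin-alpha, a scaffold, rose in FneWT and Rbp9WT, and in Rbp9WT alone with that scaling.

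Vesicle recycling genes gave 0, 2 and 1 rises among 8, again beside 9.02%, 15.1% and 17.7% of all tested genes, and the medians were 0.047, 0.36 and 0.11. lap, the clathrin adaptor AP180, accounted for the Rbp9WT call and, with stnB, for those of FneWT, at 2.36 ± 0.60 and 1.75 ± 0.60 (limma adjusted p = 0.0234 and 0.0455 in FneWT and Rbp9WT). With median-ratio scaling lap passed in ElavWT (0.0435) and FneWT (0.0142), missed in Rbp9WT (0.0509), and stnB was lost. Among the genes of transmitter synthesis and vesicle loading, 5 of 8 were abundant enough to test, since VGlut, VGAT and VAChT were not. Their summed level was 7.09 and 0.734 CPM in untreated cells and reached 51.1 CPM in FneWT replicate 1, but only 3.20 to 6.37 CPM in transfected replicate 2 libraries. Vmat, the vesicular monoamine transporter, rose with each protein (1.31 ± 0.45, 1.02 ± 0.45 and 1.27 ± 0.45). Ddc, the dopa decarboxylase, rose in FneWT and Rbp9WT (1.71 ± 0.52 and 1.95 ± 0.52). ChAT, Gad1 and ple were tested as well and did not pass with any protein. The Vmat call in FneWT was lost with median-ratio scaling (limma adjusted p = 0.061).

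SNAREs of general membrane traffic were read beside the synaptic ones. Of 20 tested, 1 rose in ElavWT, 1 in FneWT and 4 in Rbp9WT, against 9.02%, 15.1% and 17.7% of all tested genes, so the Rbp9WT count was close to that share. Their medians of -0.19, -0.21 and -0.087 lay below those of the 10 members, which were 0.69, 0.78 and 0.67. Syx17, a SNARE of autophagosomes, was the one that rose with each protein (1.35 ± 0.42, 1.14 ± 0.42 and 1.32 ± 0.42), and Vti1a, Syx6 and Snap24 joined it in Rbp9WT. Syx17 was the single rise in each contrast with median-ratio scaling. With that scaling 2 of the 20 fell in FneWT and 1 in Rbp9WT, beside 598 and 445 of all 9114 tested genes. Among 8 partners of neurexin, 0, 2 and 2 rose, beside the same 9.02%, 15.1% and 17.7% of all tested genes. In FneWT 1 fell, where 1.94% of all genes did. These counts are too small to set the list apart from all genes. CASK, a scaffold that binds the neurexin tail, rose in FneWT (1.13 ± 0.33) and Rbp9WT (0.95 ± 0.33), dlg1 in FneWT and veli in Rbp9WT. Nlg1, a neuroligin, fell in FneWT by 1.49 ± 0.32 (limma adjusted p = 0.0115), from 179 and 102 CPM to 72.7 and 45.8 CPM, while Nrx-1 rose there. With median-ratio scaling Nlg1 also fell in Rbp9WT (-1.38 ± 0.33, limma adjusted p = 0.0114), and the calls of CASK (0.0518) and veli (0.23) in Rbp9WT were lost. Calls outside the 10 members were not recomputed without single libraries.

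Markers of cell types were read in the same libraries, beside the same 9.02%, 15.1% and 17.7% of all tested genes that rose. Of 11 neuron markers, a list that holds elav, fne and Rbp9, 4, 7 and 6 rose, and the list summed to 164.5 and 105 CPM without transfection, 558 and 207 CPM with ElavWT, 662 and 277 CPM with FneWT and 1376 and 226 CPM with Rbp9WT. Its counts and sums include reads of the transfected genes, which the constructs themselves can supply, and were not recomputed without those genes. None of the 11 was at 0 in untreated cells. Of 8 tested muscle markers, out of 10, 3, 5 and 3 rose, with Tm2, a tropomyosin, by 3.07 ± 0.53, 3.12 ± 0.53 and 2.69 ± 0.53, and their sum was 23.9 and 23.4 CPM without transfection, 140.1 and 30.7 CPM with ElavWT, 244 and 63.3 CPM with FneWT and 262 and 84.1 CPM with Rbp9WT. Mhc, Mlc1 and Tm2 were at 0 in untreated replicate 2. Of 5 tested germline markers, out of 8, 2 rose in each group, with osk by 4.77 ± 0.35, 4.30 ± 0.35 and 3.50 ± 0.35, and the sum was 84.4 to 95.2 CPM in untreated cells and 120 to 342 CPM in the transfected ones.

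Of 5 tested glia markers, out of 8, 0, 2 and 2 rose, with gcm at 0 in all 8 libraries and repo at 0 in the 4 of replicate 2, and the sum was 187 to 318 CPM in untreated cells and 185 to 474 CPM after transfection. Of 5 tested fat body markers, out of 10, 0, 3 and 3 rose, with Lsp1alpha and Fbp1 at 0 in all 8 libraries and sums of 2.78 and 9.25 CPM in untreated cells, 19.7 and 16.4 in ElavWT, and 22.9 to 44.1 CPM in FneWT and Rbp9WT. Hemocyte markers, the line's own type, summed to 499 and 508 CPM in untreated cells and 429 to 895 CPM after transfection, with 1, 1 and 2 of 9 tested rising out of 12, and NimC1 and PPO1 at 0 in both untreated libraries. The part of these markers, and of the rRNA share that differs by replicate number, in the levels of the 10 members was not tested.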

How the data were processed

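Gene levels from 3'-end sequencing of 8 S2R+ libraries were analysed, in 4 groups of 2 read from the sample titles. The authors deposited CPM per gene for 13777 genes, on build dm6 per the submitters' processing notes. The sources used here name no aligner, counter or counting strand. The CPM worth of 1 read was recovered, making 100% of values whole reads within 0.01 of a read. FlyBase identifiers were matched to symbols for 13683 genes, and 94 had none.

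Genes with a mean CPM of at least 1 (9114) were fitted on log2(CPM + 1) with limma 3.58.1 (trend, robust; R 4.3.3), group as the only term, Benjamini-Hochberg adjusted p under 0.05. Libraries with the same number deviated together from the group means, so the fit with the replicate number is given beside it. The correlation was lowest with untreated cells, at 0.55, 0.678 and 0.63 for ElavWT, FneWT and Rbp9WT. Between transfected groups it was 0.767 to 0.869. The labels do not say what a number shares. Recovered reads were also tested with DESeq2 1.42.0 and with edgeR 4.0.16 by quasi-likelihood. Alternatives were median-ratio scaling, a pseudocount of 0.5, no filter, and leaving out each library. Intervals of levels are exact Poisson and those of ratios exact conditional, both at 95%, covering counting error only. Tables and plots used matplotlib 3.10.9, scipy 1.17.1, numpy 2.4.6 and pandas 2.3.3 under Python 3.11.15.

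The 10 members and the other 12 gene lists were chosen with earlier results of these data known. All members, Snap24, Syb, elav, fne and Rbp9 are named. From each other list come up to 4 genes with the largest absolute change among those passing in either fit; cac, Liprin-alpha, VGlut, VGAT, VAChT and markers at 0 were named after their values were seen. The limma fit was tested on simulated data. Sequences were not used here.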

Additional observations from a re-analysis of the deposited data

How the results depend on the processing

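With the replicate block (the paired fit), genes passing against untreated cells numbered 921, 1551 and 1684 in ElavWT, FneWT and Rbp9WT, and members 3, 5 and 4; with group alone both were 0. Further settings of the paired fit gave, in that order, 961, 1712 and 1387 genes and 3, 4 and 4 members with median-ratio scaling, and 1044, 1662 and 1820 genes and 3, 5 and 4 members with a pseudocount of 0.5. No filter gave 621, 1218 and 1245 genes and 3, 5 and 4 members, and edgeR 1534, 2364 and 2046 genes and 3, 4 and 4 members. DESeq2 without the block gave 263, 436 and 266 genes and, in FneWT, 1 member. Between proteins, FneWT against ElavWT passed 16 genes with the block, 16 with median-ratio scaling or the other pseudocount, 0 without a filter, 21 with edgeR and 1 with DESeq2. Rbp9WT against ElavWT passed 54 with the block, the other pseudocount or edgeR, 39 with median-ratio scaling, 11 without a filter and 4 with DESeq2, and Rbp9WT against FneWT passed at most 1.

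Among members 3 changes close to 0, of 2 genes, turned sign, none of them called. nSyb in FneWT became 0.069 with a pseudocount of 0.5, 0.039 without a filter and 0.021 with median-ratio scaling, with or without the block. Syx1A became -0.062 (edgeR) and -0.054 (DESeq2) in FneWT. In Rbp9WT it became -0.012 (pseudocount 0.5), -0.033 (median-ratio scaling), -0.16 (edgeR), -0.15 (DESeq2) and -0.054 (edgeR with the block).

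Leaving out 1 library, with or without the block, gave 0 to 2820, 0 to 3520 and 0 to 3474 genes and 0 to 9, 0 to 9 and 0 to 10 members against untreated cells, and 0 to 134, 0 to 302 and 0 to 9 genes for FneWT against ElavWT, Rbp9WT against ElavWT and Rbp9WT against FneWT, with 0 to 2 members in the second. In the order ElavWT, FneWT, Rbp9WT, brp ran from -0.39 to 2.05, -0.76 to 2.10 and -1.12 to 2.22, cpx from -0.85 to 0.30, -0.31 to 0.85 and -0.19 to 1.22, nSyb from -2.55 to 1.11, -1.91 to 1.77 and -2.57 to 1.07, and Syx1A from -0.59 to 1.31, -0.90 to 0.99 and -0.99 to 0.94. Rim in Rbp9WT ran from -0.11 to 2.59, Syn in ElavWT from -0.99 to 2.24, Syt1 from -0.43 to 1.71 in FneWT and -0.31 to 1.90 in Rbp9WT, and unc-13 from -0.25 to 1.05 in ElavWT and -0.31 to 1.03 in Rbp9WT. The cause was not tested. Where 1 library of a group remained, it was assumed to vary like the other groups. Depth limits brp and Syn in replicate 2, where they rest on 1 to 21 reads. Other members were thin there too, and untreated replicate 2 held 9 reads of nSyb, 11 of Rim, 12 of Nrx-1 and 20 of Syt1.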
